A study of Mus musculus with 12 samples.

Results

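The IL-12 family is a group of secreted cytokines, each built from a pair of chains, together with the receptor chains that bind them. The members described here are the 9 genes Ebi3, Il12a, Il12b, Il27, Il23a, Il12rb1, Il12rb2, Il27ra and Il6st, chosen by name as the chains of IL-12, IL-23, IL-27 and IL-35 and their receptors. All probe sets annotated to 1 of these genes alone were taken. That gave 12 probe sets of 8 genes among the 45037 probe sets of the series that are not controls. Il27 was not analysed here, because no probe set carried its name alone. Ebi3, Il12a, Il23a, Il12rb1, Il12rb2 and Il27ra had 1 probe set each, Il12b had 2 and Il6st had 4.

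RNA of regulatory T cells (Tregs), T cells that restrain other immune cells, had been measured on 12 Affymetrix mouse arrays. The cells were sorted by flow cytometry and used fresh, without treatment. There were 3 arrays each of Ebi3 knockout cells (Ebi3_KO, labelled Ebi3 -/-), Il10 knockout cells (Il10_KO, labelled Il10 -/-), cells lacking both genes (DKO, labelled Ebi3 -/- Il10 -/-) and wild-type cells (WT). The labels number the replicates 1 to 3 and give the same number as a batch, so each of the 3 batches held 1 array of each genotype. The labels state no strain, age, sex, targeted allele or number of animals behind an array, so p-values measure the spread between these arrays, which may be technical. In RNA of a whole sorted population, fewer cells that express a gene and less of its RNA per cell cannot be told apart.

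Each cytokine of the family pairs a helical chain with a chain that resembles a soluble cytokine receptor. Il12a (p35) pairs with Il12b (p40) in IL-12, Il23a (p19) pairs with Il12b in IL-23, Il27 (p28) pairs with Ebi3 in IL-27, and Il12a pairs with Ebi3 in IL-35. IL-12 binds Il12rb1 with Il12rb2, IL-23 binds Il12rb1 with the receptor chain encoded by Il23r, and IL-27 binds Il27ra with Il6st (gp130), which many other cytokines share. For IL-35, pairs that include Il12rb2 and Il6st have been described. Tregs of mice are known to secrete IL-35 as one of their suppressive products, while IL-12, IL-23 and IL-27 come mainly from dendritic cells and macrophages. The receptors signal through Janus kinases and STAT transcription factors.

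The 250 bases before the start of a transcript are shown for 4 members, to set the gene that the knockouts target beside the other receptor-like chain, Il12b, and beside a low and a high receptor chain, Il12rb2 and Il6st. They were read from RefSeq on build GRCm38.p6, which held such a window for 5 of the 9 members. The windows lie at chr17:55952373-55952622 on the plus strand for Ebi3, chr11:44399813-44400062 on the plus strand for Il12b, chr6:67376189-67376438 on the minus strand for Il12rb2, and chr13:112463820-112464069 on the plus strand for Il6st. Capitals mark a match, on either strand, to the kappaB motif of NF-kB (searched by its usual consensus), to the AP-1 motif TGANTCA, to the STAT motif TTCNNNGAA or to TATAAA.
Ebi3: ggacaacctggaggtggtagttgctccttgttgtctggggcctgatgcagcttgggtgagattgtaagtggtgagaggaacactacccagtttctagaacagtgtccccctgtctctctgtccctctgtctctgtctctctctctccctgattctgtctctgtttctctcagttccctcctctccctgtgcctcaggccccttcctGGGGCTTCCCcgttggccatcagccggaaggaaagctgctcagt
Il12b: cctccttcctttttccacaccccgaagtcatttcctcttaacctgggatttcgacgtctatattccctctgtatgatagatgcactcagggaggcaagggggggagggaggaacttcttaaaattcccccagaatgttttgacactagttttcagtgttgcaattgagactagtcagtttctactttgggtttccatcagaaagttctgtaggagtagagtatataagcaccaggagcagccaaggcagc
Il12rb2: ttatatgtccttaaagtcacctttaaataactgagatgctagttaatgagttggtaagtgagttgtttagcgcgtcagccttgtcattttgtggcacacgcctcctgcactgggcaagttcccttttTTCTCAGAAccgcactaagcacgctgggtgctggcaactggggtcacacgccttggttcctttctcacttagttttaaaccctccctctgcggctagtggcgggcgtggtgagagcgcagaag
Il6st: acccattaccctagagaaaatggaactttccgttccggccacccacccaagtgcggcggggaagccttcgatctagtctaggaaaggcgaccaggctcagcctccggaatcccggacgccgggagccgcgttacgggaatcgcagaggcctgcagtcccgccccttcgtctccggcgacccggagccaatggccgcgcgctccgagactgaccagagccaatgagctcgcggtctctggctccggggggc
The Ebi3 window held 1 kappaB match, GGGGCTTCCC, which begins 44 bases before the start, and 7.25% of the 32851 RefSeq windows of this length hold such a match. The Il12rb2 window held 1 STAT match, TTCTCAGAA, 123 bases before the start, and 7.02% of all windows hold one. In the windows of Il12b and Il6st none of these letters were found. For comparison, 6.75% of all windows hold the AP-1 motif and 12.4% hold TATAAA. The windows also differ in CpG dinucleotides. Ebi3 had 2, Il12b had 3, Il12rb2 had 10 and Il6st had 26, against a median of 6 over all windows, and 90.4% of all windows had fewer than Il6st.

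Values are given as signal, the brightness of a probe set in the MAS5 units of the authors' table, and differences are on the scale of log2(signal + 20), which understates changes of dim probe sets. Probe sets have different affinities, so signals were compared between arrays for each probe set and not between genes. As a measure of the level without expression, 34 probe sets of 16 genes of other tissues were used, such as Alb of liver and Gfap of brain. Their median signal on an array was 10 to 27.9 and their 90th percentile 54.7 to 111.4, and a probe set is called above the tissue gene level on an array when it exceeded that percentile there. The number of arrays limits the precision of every value.

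All 10 Treg markers measured, Foxp3 among them, and all 5 T cell markers were above the tissue gene level on 12 arrays, so the labelled cell type carried its defining RNA. Some markers of other cells were present too. In batches 1, 2 and 3 the summed signal of 6 myeloid markers was 2816.1 to 3733.2, 2206.2 to 4299.6 and 21247.2 to 39873.1, so all 4 arrays of batch 3 stood apart. The sums over 5 dendritic cell markers were 333.1 to 448.6, 384 to 520.9 and 852 to 1732.9. Of these markers Itgax was above the tissue gene level on all 12 arrays and Xcr1 on no array. Neutrophil markers (4419.5 to 14405.6, against 969.1 to 3963.6 in batch 1 and 1077.9 to 3229.9 in batch 2) and CD8 and NK cell markers (2651.1 to 4946.6, against 1502.9 to 1978.7 and 1223 to 1954.7) were higher in batch 3 as well. B cell marker sums in batch 3 (2180.5 to 6888.8) were above batch 2 (710.4 to 1724.2) and overlapped with batch 1 (1938.3 to 3612). Treg marker sums were lower in batch 3, at 51034.6 to 55128.6, against 66140.2 to 75545.4 in batch 1 and 66076.3 to 74033.2 in batch 2. The genotypes also differed inside batch 3, where the myeloid sum was 21749.5 in Ebi3_KO, 39873.1 in Il10_KO, 35822.5 in DKO and 21247.2 in WT. The neutrophil sum was lowest in Ebi3_KO in every batch, at 969.1, 1077.9 and 4419.5 in batches 1, 2 and 3. The next lowest sums were 2095.5 in DKO of batch 1, and 1358.5 and 11400 in Il10_KO of batches 2 and 3. Myeloid and dendritic cells express several members of the family, and the part of such RNA in the results below was not tested. Differences within a batch leave these inequalities between genotypes in place.

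**Figure D1:**
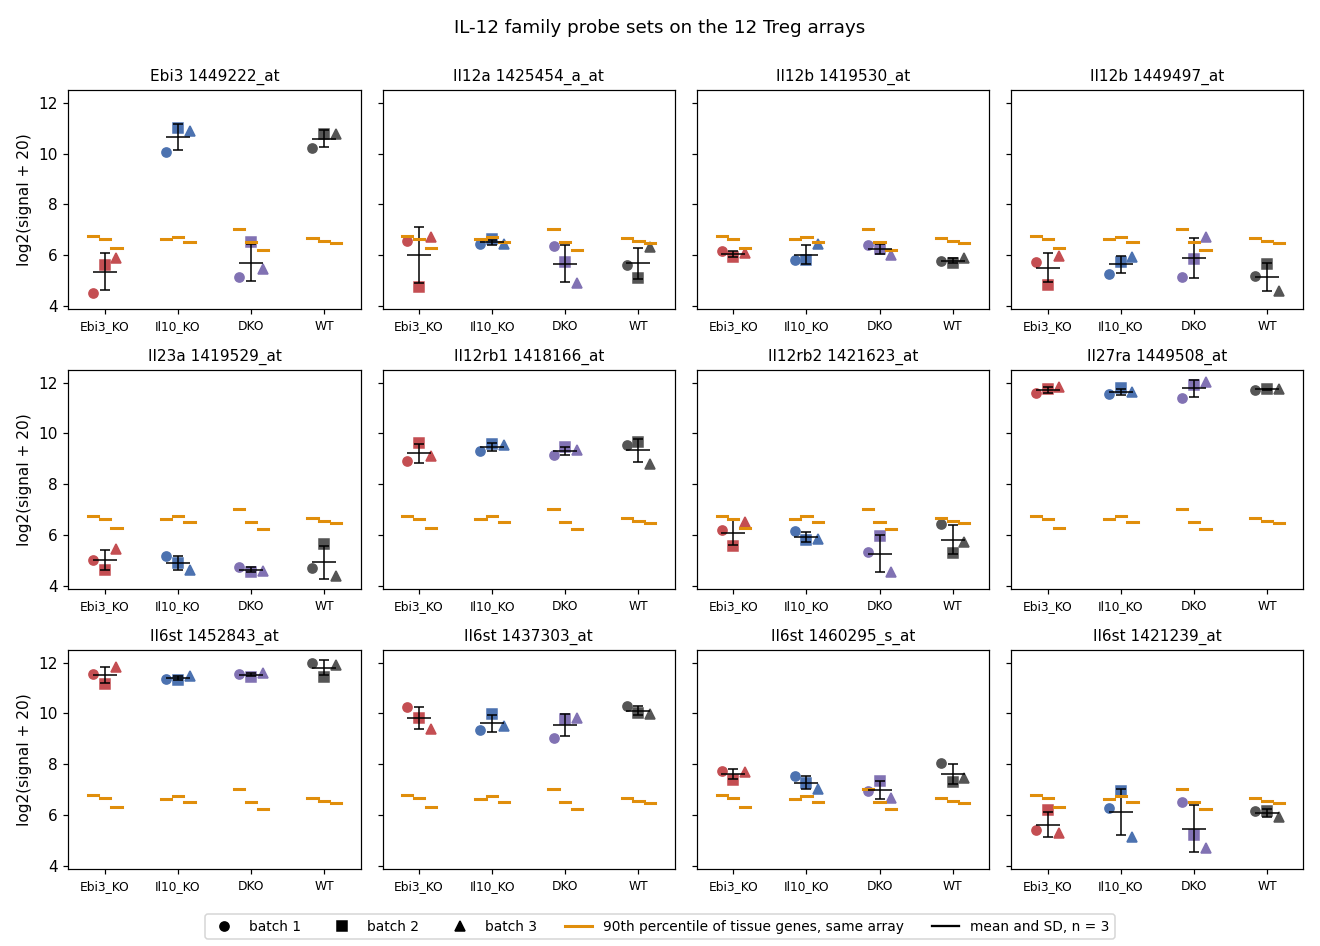
Signal of the 12 IL-12 family probe sets on each array, as log2(signal + 20), by genotype, with batches as symbols, mean and SD (n = 3) in black and the 90th percentile of the tissue genes on the same array in orange. Ebi3 is below the orange lines in Ebi3_KO and DKO, except on DKO replicate 2 (72.5, with the line at 71.5). It is far above them in Il10_KO and WT, while Il12rb1, Il27ra and 2 Il6st probe sets lie above them on all 12 arrays.

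Of the targeted genes, Ebi3 was low where its loss is labelled and Il10 was not. Il10, which encodes the cytokine IL-10, has 1 probe set, which read 2038.2, 1976 and 1027.8 in Il10_KO and 2250.8, 2639.6 and 1016.7 in DKO, against 1401.1, 2384.6 and 574.4 in Ebi3_KO and 184.5, 2939.8 and 483.8 in WT. The genotypes overlapped, with the lowest and the highest signal both in WT. The Il10 difference from WT was 1.27 ± 0.803 in Il10_KO and 1.45 ± 0.803 in DKO (each limma adjusted p = 1), and within batches 1, 2 and 3 it was 3.33, -0.57 and 1.06 in Il10_KO and 3.47, -0.15 and 1.04 in DKO. Omitting arrays or batches moved it to between 0.244 and 2.34 for Il10_KO, and between 0.443 and 2.52 for DKO. The sources used here give neither the deleted part of Il10 nor where these probes lie, so whether the probe set lies outside that part is unknown. The loss of Il10 is therefore not checked by these arrays. Il10_KO and DKO mean libraries so labelled, and every difference attributed to Il10 loss rests on the labels alone.

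Ebi3, the chain shared by IL-27 and IL-35, separated the libraries labelled with its loss from the others. Its signal was 3, 29.4 and 39.5 in Ebi3_KO (replicates 1 to 3) and 15.2, 72.5 and 23.6 in DKO, against 1062.5, 2057.3 and 1899.6 in Il10_KO and 1159, 1727.8 and 1725.9 in WT. The arrays without Ebi3 and those with it did not overlap, and DKO replicate 2 was the only array of the first kind above the tissue gene level, which was 71.5 there. Ebi3 fell in Ebi3_KO against WT, with a difference of -5.23 ± 0.448 (SE, n = 3 each, limma adjusted p = 0.0015). It also fell in DKO, by a difference of -4.88 ± 0.448 from WT (adjusted p = 0.00111) and -4.96 ± 0.448 from Il10_KO (adjusted p = 0.00273). Within batches 1, 2 and 3 the Ebi3_KO difference from WT was -5.68, -5.14 and -4.87, and the DKO difference was -5.07, -4.24 and -5.32. The fit with batch as a block gave these calls as well, with smaller standard errors (0.257).

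Beside these calls, the share of all 31235 tested probe sets called in the same contrasts was 0.0032% in Ebi3_KO against WT, 0.0096% in DKO against WT and 0.0032% in DKO against Il10_KO. In the batch-blocked fit it was 0.0032%, 0.0416% and 0.0032%. In each of these contrasts Ebi3 was the single member called, and the members' other 10 tested probe sets were not. Without batch 1 the fit, with 2 arrays per genotype, kept the 3 Ebi3 calls (adjusted p = 0.0333, 0.0291 and 0.0352). Without batch 2 or batch 3 the calls were lost, with differences of -5.28 and -5.41 in Ebi3_KO (adjusted p = 0.609 and 0.274) and -5.19 and -4.65 in DKO against WT (adjusted p = 0.226 and 0.515). In DKO against Il10_KO it gave -5.20 and -4.72 (adjusted p = 0.672 and 0.752).

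In the libraries labelled Il10_KO, Ebi3 did not differ from WT beyond the spread of the arrays. The Il10_KO difference from WT was 0.09 ± 0.448 (adjusted p = 1), with a 95% interval of -0.88 to 1.06, or -0.47 to 0.64 in the batch-blocked fit. Within batches it was -0.12, 0.25 and 0.14. The lowest Ebi3 signals of both Ebi3-carrying genotypes came from batch 1, and the batch 1 pair (1062.5 in Il10_KO, 1159 in WT) lay below the 4 arrays of these genotypes in batches 2 and 3. The order of the genotype means was Il10_KO (1673.1 ± 535, SD), WT (1537.6 ± 328), DKO (37.1 ± 30.9) and Ebi3_KO (24 ± 18.8). The first pair and the last pair in this order did not differ beyond their spread. DKO against Ebi3_KO read 0.36 ± 0.448 (adjusted p = 1).

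By the rule for likeness, the probe sets whose values followed Ebi3 most closely over the 12 arrays, after batch means were removed, were those of Dennd1c on chromosome 17 (Pearson r = 0.953), Snap23 on chromosome 2 (0.947) and Psmb9 on chromosome 17 (0.925). Ebi3 is itself on chromosome 17. Dennd1c read 2039.5, 1066.5 and 1785.8 in Ebi3_KO, 2164.5, 1196.9 and 1710.8 in DKO, 2970.3, 1874.6 and 2464.6 in Il10_KO, and 3096.1, 2057 and 3111.6 in WT. In each batch both genotypes without Ebi3 were below both with it. These are the highest correlations among the tested probe sets of other genes with 1 symbol. Each is over arrays that share their genotype groups, and none was tested.

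The helical chain Il12a, which completes IL-35 with Ebi3, stayed at the level of tissue genes in all genotypes. Its signal was 74.8, 6.7 and 85 in Ebi3_KO, 67.1, 79.2 and 66.8 in Il10_KO, 61.2, 33.5 and 10.1 in DKO, and 28.9, 14.7 and 59.2 in WT. Ebi3_KO replicate 3 was the 1 array on which it exceeded the tissue gene level. The 3 Il10_KO arrays lay above the 3 WT arrays without overlap, as 3.14% of tested probe sets did. They also lay above the 3 DKO arrays, and 2.13% of tested probe sets were lower in DKO than in Il10_KO in that way. The Il10_KO difference from WT was 0.83 ± 0.545 and did not pass (adjusted p = 1), nor did that of Ebi3_KO (0.33 ± 0.545) or DKO (-0.01 ± 0.545). The wide intervals, -0.36 to 2.01 in Il10_KO and -1.20 to 1.17 in DKO, include changes of more than 2-fold.

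Il12b, the p40 chain of IL-12 and IL-23, was also dim. Its brighter probe set, 1419530_at, read 51.8, 41.1 and 48.3 in Ebi3_KO, 36, 36.8 and 67.2 in Il10_KO, 64.8, 56.7 and 45 in DKO, and 34.8, 32 and 39.1 in WT, below the tissue gene level on every array. WT was the lowest genotype in all 3 batches, which held for 2.12% of all tested probe sets. Ebi3_KO and DKO did not overlap with WT, where 1.96% and 3.2% of tested probe sets were higher without overlap. The differences from WT were 0.28 ± 0.301 in Ebi3_KO, 0.24 ± 0.301 in Il10_KO and 0.44 ± 0.301 in DKO, and none passed (adjusted p = 1, and 0.741 to 0.947 in the batch-blocked fit). The other probe set, 1449497_at, read 33.6, 8.8 and 42.1 in Ebi3_KO, 18.7, 33.3 and 40.2 in Il10_KO, 15.1, 38.3 and 83.8 in DKO, and 16.2, 31 and 3.8 in WT. Its highest value, 83.8, was on DKO replicate 3, in the batch with high myeloid markers, and it alone exceeded the tissue gene level. Its lowest value, 3.8, was on WT replicate 3 of the same batch. Il10_KO replicate 3, with the highest myeloid sum, read 40.2. The DKO difference of 1449497_at from WT was -0.04, 0.19 and 2.12 within batches 1, 2 and 3, the last between its highest and its lowest value.

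Il23a, the p19 chain of IL-23, was the 1 measured member too dim to be tested. It read 12.2, 4.9 and 23.4 in Ebi3_KO, 16.1, 10 and 4.9 in Il10_KO, 7.1, 3.5 and 4.3 in DKO, and 6.2, 30.7 and 1.2 in WT. All genotypes overlapped. It was below the tissue gene level on all 12 arrays and did not pass the filter on dim values.

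Among the receptor chains, Il27ra was above the tissue gene level on all 12 arrays and had the smallest standard error of the 11 tested probe sets. It binds IL-27 and gives the receptor its specificity. Its signal was 3068.8, 3468.6 and 3581.3 in Ebi3_KO, 2967.4, 3488.4 and 3114.6 in Il10_KO, 2690.8, 3842.6 and 4179.8 in DKO, and 3367.2, 3410.1 and 3413.6 in WT. The WT arrays fell inside the range of DKO, and every genotype overlapped with WT. Differences from WT were -0.01 ± 0.19 in Ebi3_KO, -0.09 ± 0.19 in Il10_KO and 0.05 ± 0.19 in DKO (each adjusted p = 1). The 95% intervals were -0.43 to 0.40, -0.51 to 0.32 and -0.37 to 0.46 in the same order, and differences within these bounds cannot be told from 0 here. Pacs1 (r = 0.933), Wdsub1 (r = 0.923) and Arpc5l (r = 0.922) followed Il27ra most closely by the same rule.

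Il12rb1, the chain shared by the receptors of IL-12 and IL-23, was likewise above the tissue gene level on all 12 arrays. It read 457.4, 774.1 and 536.6 in Ebi3_KO, 612.6, 758 and 723.4 in Il10_KO, 545, 679 and 635.9 in DKO, and 728.8, 789.4 and 429.3 in WT. The WT arrays held both the highest and the lowest value, so no genotype stood apart. The differences from WT were -0.12 ± 0.28 in Ebi3_KO, 0.14 ± 0.28 in Il10_KO and -0.02 ± 0.28 in DKO (each adjusted p = 1). Within the batches they did not keep 1 direction: in batches 1, 2 and 3 the Il10_KO difference was -0.24, -0.06 and 0.73. DKO against Il10_KO was steadier, at -0.16, -0.15 and -0.18, and 12.5% of tested probe sets were lower in all batches of that contrast.

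Il12rb2, the signalling chain of the IL-12 receptor, was near the level of tissue genes. Its signal was 53.7, 27.4 and 72.5 in Ebi3_KO, 51.7, 36.2 and 37.5 in Il10_KO, 19.9, 42.5 and 3.2 in DKO, and 67.3, 19.2 and 32.9 in WT. Ebi3_KO replicate 3 alone exceeded the tissue gene level. The groups overlapped, and the differences from WT were 0.28 ± 0.442 in Ebi3_KO, 0.12 ± 0.442 in Il10_KO and -0.55 ± 0.442 in DKO (each adjusted p = 1). On the other 11 arrays Il12rb2 was not above that level.

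Il6st, or gp130, gave the smallest unadjusted limma p-values of the members other than Ebi3 in the 3 contrasts with WT. They were 0.218 for Ebi3_KO and 0.0712 for Il10_KO, both from 1452843_at, and 0.0643 for DKO, from the dimmer 1460295_s_at. In DKO the limma p of 1452843_at was 0.232. Il6st had 4 of the 10 tested member probe sets other than Ebi3, and so more chances of a small p. None of its probe sets passed. Its brightest probe set, 1452843_at, read 3003.3, 2291.4 and 3588.2 in Ebi3_KO, 2607.9, 2517.8 and 2797.5 in Il10_KO, 2965.9, 2768.7 and 3061 in DKO, and 4055.9, 2780.1 and 3861.9 in WT. In every batch WT was the highest of the 4 genotypes. The same held for 1437303_at, which read 1203.9, 890 and 657.9 in Ebi3_KO, 630.9, 994.1 and 705.7 in Il10_KO, 505.6, 848 and 892.1 in DKO, and 1239.7, 1022.3 and 982.1 in WT. Of all tested probe sets, 2.95% had WT highest in all 3 batches.

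The difference of 1452843_at from WT was -0.27 ± 0.209 in Ebi3_KO, -0.41 ± 0.209 in Il10_KO and -0.26 ± 0.209 in DKO (each limma adjusted p = 1). For 1437303_at it was -0.27 ± 0.296, -0.49 ± 0.296 and -0.55 ± 0.296 in the same order (each adjusted p = 1). Leaving out arrays or batches moved the difference of 1437303_at to between -0.576 and -0.0457 in Ebi3_KO, -0.709 and -0.253 in Il10_KO, and -0.809 and -0.2 in DKO. For Il6st 1452843_at the ranges were -0.44 to -0.0994, -0.581 to -0.302 and -0.432 to -0.161, so both kept their sign. In the batch-blocked fit the unadjusted p of 1452843_at in Il10_KO was 0.0117, with a 95% interval of -0.72 to -0.11, and the adjusted p was 0.566. Within batches 1, 2 and 3 that difference was -0.63, -0.14 and -0.46, so batch 2 showed the least of it. The 3 DKO arrays of 1437303_at lay below the 3 WT arrays without overlap, as 2.97% of tested probe sets did. By the rule for likeness Slc30a7 (r = 0.985), Dkc1 (r = 0.965) and Ppa2 (r = 0.96) followed 1452843_at.

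The other Il6st probe sets, which the annotation ties to 1 shared sequence record, were dimmer and did not follow in every genotype. The probe set 1460295_s_at, whose suffix marks probes that can match several transcripts, read 194.9, 148.4 and 185.1 in Ebi3_KO, 165.5, 131.6 and 110.2 in Il10_KO, 103.8, 142.1 and 81 in DKO, and 244, 136.8 and 158.2 in WT. It differed from WT by 0.00 ± 0.306 in Ebi3_KO, -0.34 ± 0.306 in Il10_KO and -0.62 ± 0.306 in DKO, with no call (adjusted p = 1). DKO lay below Ebi3_KO without overlap, which 1.82% of tested probe sets did. The probe set 1421239_at ranged from 5.8 to 104.7, exceeded the tissue gene level on 1 array, and overlapped between WT (40.4 to 52.4) and every knockout.

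**Figure D2:**
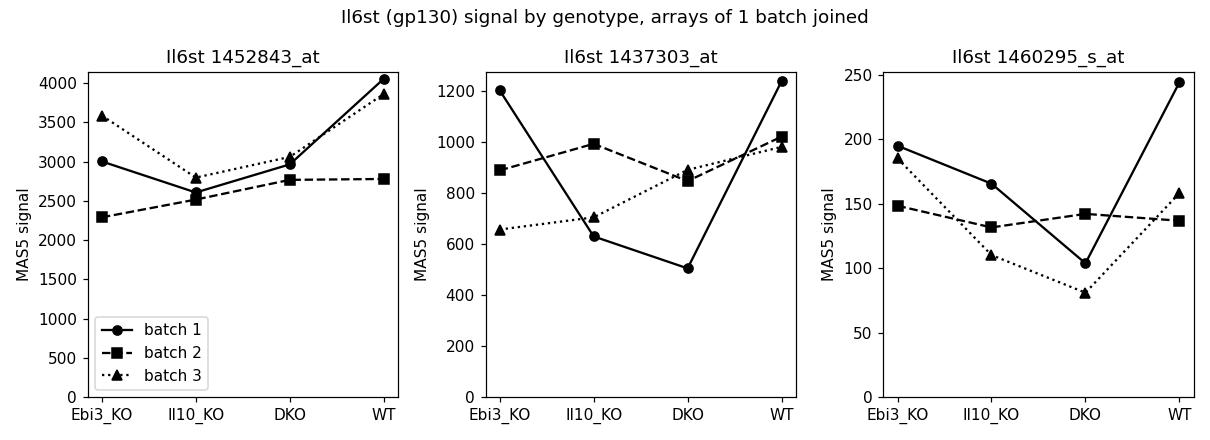
MAS5 signal of 3 Il6st probe sets in each genotype, with the 4 arrays of a batch joined and the axis starting at 0. WT is the highest point of every line for 1452843_at and 1437303_at, by the least in batch 2 for 1452843_at (2780.1 in WT, against 2768.7 in DKO), and not for 1460295_s_at.

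Set side by side, the 3 contrasts with WT share the WT arrays, so that 1 WT array moves all of them. Over the 11 tested member probe sets the median difference was -0.01 in Ebi3_KO, 0.09 in Il10_KO and -0.26 in DKO, against -0.03, 0.00 and 0.01 over all tested probe sets. Without the targeted gene Ebi3 the member medians were -0.01, 0.08 and -0.14 in the same order, and 4 of those 10 probe sets are of Il6st. Beside the calls of Ebi3, no member was called in Il10_KO against WT or in DKO against Ebi3_KO, where the share of all tested probe sets called was 0.0064% in each, or 0.0384% and 0.0192% in the batch-blocked fit. In the test for any genotype difference (moderated F test) Ebi3 had an adjusted p of 0.000226 and the other 10 tested member probe sets an adjusted p of 1, with 0.0096% of all tested probe sets called (0.0416% in the batch-blocked fit). Members that kept 1 direction within all 3 batches were counted beside the share of all tested probe sets that did so. In Ebi3_KO 3 probe sets were lower than WT in all batches (Ebi3 and 2 of Il6st, against 15.3% of all tested) and 1 was higher (Il12b, 11.1%). In Il10_KO 3 were lower (all Il6st, 13.7%) and 3 higher (Il12a and both of Il12b, 12.5%). In DKO 3 were lower (Ebi3 and 2 of Il6st, 15.2%) and 1 higher (Il12b, 13.9%). In DKO against Ebi3_KO 1 was lower (Il6st, 10.6%) and 0 higher (14.5%), and in DKO against Il10_KO 3 were lower (Ebi3, Il12a and Il12rb1, 12.5%) and 1 higher (Il6st, 13.8%). Ebi3 was the 1 probe set lower in Ebi3_KO than in WT without overlap (2.21% of all tested), 0 were lower in Il10_KO than in WT (2.74%), and 0 were higher in DKO than in Ebi3_KO (2.54%) or Il10_KO (2.19%). By the labels, the effect of both losses together differed from the sum of the single losses in 0 member probe sets. Over all tested probe sets it did so in 0% (limma interaction). At an unadjusted p under 0.05 the limma interaction held 400 probe sets, or 1232 in the batch-blocked fit. Both counts are smaller than a 0.05 share of the 31235 tested probe sets. Il12a had an interaction of -1.17 ± 0.77 and Il12rb2 one of -0.95 ± 0.625 (each unadjusted p = 0.155).

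**Figure D3:**
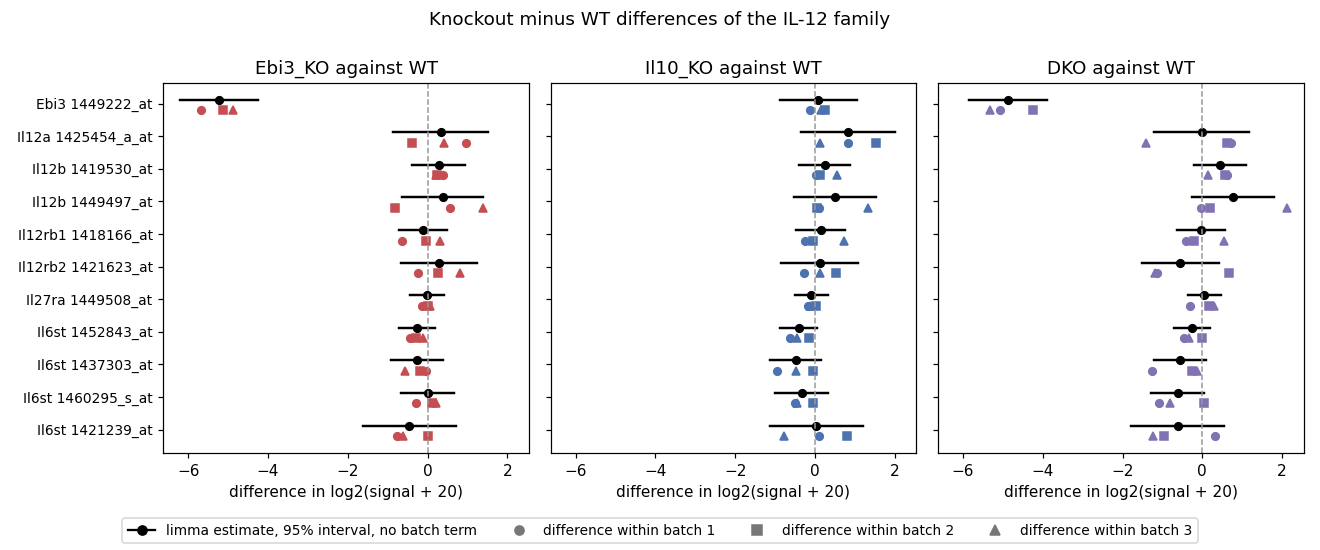
Differences from WT in log2(signal + 20) for the 11 tested probe sets, with the limma estimate and its 95% interval in black and the difference within each batch as coloured symbols. The Ebi3 intervals in Ebi3_KO and DKO end at -4.26 and -3.90, and the Il27ra intervals stay between -0.51 and 0.46. In this fit, which has no batch term, the intervals of every member other than Ebi3 cross 0.

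The genes through which the receptors signal, and their targets, were counted from lists named with the members, using the probe set of highest mean per gene. Of 8 Janus kinases and STATs 7 were tested, and 0 passed in either direction in any of the 5 pairwise contrasts, with or without the batch block. Their median difference from WT was -0.05 in Ebi3_KO, 0.00 in Il10_KO and 0.07 in DKO. Stat4, which carries the IL-12 signal, read 0.25 ± 0.317 in Ebi3_KO, and Jak2, a kinase bound to Il12rb2, 0.15 ± 0.225. Jak1, a kinase bound to gp130, read 0.18 ± 0.289 in Il10_KO, and Stat5b -0.11 ± 0.177. Stat3, the main STAT below gp130, read 0.07 ± 0.27 and Stat5a 0.10 ± 0.309 in DKO (each adjusted p = 1).

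Of 19 targets and regulators 15 were tested, and again 0 passed in either direction. Their median difference from WT was 0.12 in Ebi3_KO, 0.43 in Il10_KO and 0.24 in DKO, or 0.11, 0.42 and 0.23 over the 14 genes without the targeted gene Il10. Ifng, the gene of interferon gamma and a target of IL-12, differed from WT by 1.04 ± 0.518 in Ebi3_KO, 1.69 ± 0.518 in Il10_KO and 1.73 ± 0.518 in DKO (each adjusted p = 1), and WT replicate 1 had the lowest signal of the 12 arrays (307.3). Leaving out arrays or batches moved the Ifng difference to between 0.289 and 1.56 in Ebi3_KO, 1.02 and 2.20 in Il10_KO, and 1.06 and 2.25 in DKO, with the lowest value in each without WT replicate 1 or the whole of batch 1. Prdm1, the gene of the repressor Blimp-1, read -0.47 ± 0.273 in Ebi3_KO. Il18rap, part of the receptor for IL-18, read 0.76 ± 0.334 in Il10_KO, and its partner Il18r1 read 1.33 ± 0.406 in DKO (adjusted p = 0.0719 in the batch-blocked fit). Socs3, which blocks gp130, passed with 1 of its less bright probe sets when batch was blocked (a difference of 1.32 between Il10_KO and WT, limma adjusted p = 0.037, or 1 without the block), while its brightest probe set read 0.79 and did not pass. That Socs3 call was also made with quantile normalization and the batch block (limma adjusted p = 0.0445). It was lost with batch as a random block at the estimated correlation of 0.461 (adjusted p = 0.483). With arrays or batches left out it was made in 2 of 27 fits, of which 12 had the block. The differences were 0.694 to 1.66, the lowest without WT replicate 3.

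Of 13 other cytokines and receptors of the gp130 group 9 were tested and 0 passed. Their median difference from WT was 0.26 in Ebi3_KO, 0.18 in Il10_KO and 0.26 in DKO. Il11 read 0.85 ± 0.486 in Ebi3_KO and 0.87 ± 0.486 in DKO. Cntfr, a receptor of neurotrophic cytokines, read -0.57 ± 0.334 in Ebi3_KO. Lif, a cytokine that signals through gp130, read 0.92 ± 0.578 in Il10_KO and 0.85 ± 0.578 in DKO, and Ctf1 read 0.81 ± 0.606 in Il10_KO (each adjusted p = 1).

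**Figure D4:**
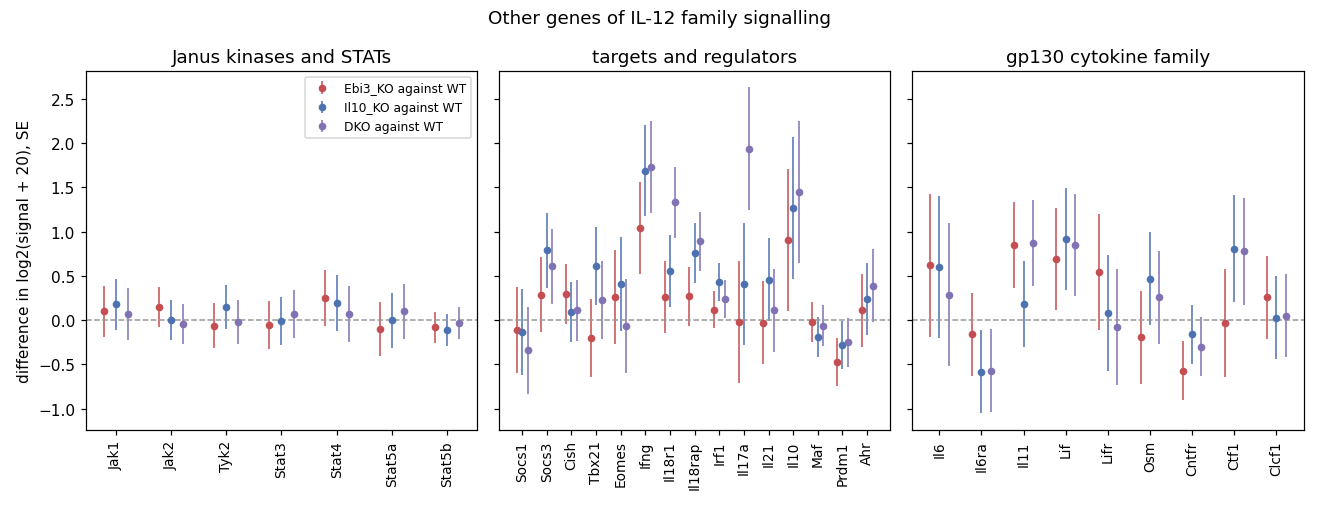
Differences from WT in log2(signal + 20), with SE, for the tested Janus kinases and STATs, targets and regulators, and gp130 group genes, coloured by knockout. The kinases and STATs stay between -0.11 and 0.25, while Ifng reaches 1.73 in DKO and Il17a, named after its values were seen, 1.94, and 0 of these probe sets passed the threshold.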

How the data were processed

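Per the labels, total RNA was labelled with biotin and measured on 1-colour Affymetrix arrays, with MAS5 and Partek 6.4 listed in the submitters' processing notes. The authors deposited natural log values. The values themselves show that 20 was added to each MAS5 signal before the log was taken, since signals so recovered below 200 are multiples of 0.1 within 0.005 and every array has a trimmed mean of 500. Background settings are not given in the sources used here. Values were turned into log2(signal + 20) without further normalization. Of 45101 probe sets 64 controls were left out. Testing required a value at or above the 40th percentile of the array on 3 arrays or more, leaving 31235 probe sets, 11 of the 12 members' among them. Median signals per array were 59.3 to 89.1, and no arrays were identical.

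Probe sets were named from the platform annotation where it gave 1 symbol (34945 probe sets, with several symbols for 932 and none for 9160). One limma 3.58.1 model (R 4.3.3) held all 4 genotypes (lmFit, eBayes with trend, 8 residual degrees of freedom). Adjusted p-values are Benjamini-Hochberg values over all tested probe sets, with a threshold of 0.05. The fit with batch as a block (6 residual degrees of freedom) was the paired alternative. The pairing comes from the labelled batches, and deviations from the genotype means correlated at 0.325 to 0.664 between arrays of 1 batch, against -0.531 to -0.0204 otherwise. At an unadjusted limma p under 0.05 the unblocked fit held 439, 618 and 669 probe sets in Ebi3_KO, Il10_KO and DKO against WT. The blocked fit held 1658, 2398 and 2577. The unblocked fit, from which most values above come, leaves the pairing out and held fewer. A member that did not pass there is not shown to be unchanged. The fits were tested on simulated data. All members, with every probe set, were named by rule, and of the other lists those past the threshold or the 2 of smallest p. Likeness to Ebi3, Il27ra and Il6st was read from the 3 highest Pearson correlations after batch means were removed, among tested probe sets of other genes with 1 symbol. The members and lists were chosen with earlier results of these data known.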

Additional observations from a re-analysis of the deposited data

How the results depend on the processing

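Across 35 alternative settings no member other than Ebi3 passed the threshold, with a lowest adjusted p of 0.475, and Ebi3 was called in 33 of the 35 in each of its contrasts. The Ebi3 difference ranged from -5.51 to -3.71 in Ebi3_KO against WT, from -5.29 to -3.58 in DKO against WT and from -5.38 to -3.67 in DKO against Il10_KO. The calls were lost without replicate 2 or replicate 3 of all genotypes, where 2 arrays per genotype remained. The batches pair the arrays, and the replicate block changed no call of a member.

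With the replicate block, the random replicate block, and quantile normalization with the replicate block, the probe sets past the threshold numbered 12, 4 and 10 in Il10_KO against WT, 13, 10 and 13 in DKO against WT, 6, 5 and 7 in DKO against Ebi3_KO, and 13, 12 and 11 in the moderated F test. Leaving out arrays or batches, with and without the block, gave counts of 0 to 8 in Ebi3_KO, 0 to 7 in Il10_KO and 0 to 31 in DKO against WT, 0 to 7 in DKO against Ebi3_KO, 0 to 16 in DKO against Il10_KO, 0 to 1 in the interaction and 0 to 33 in the F test. The members past the threshold then numbered 0 to 1 in Ebi3_KO and DKO against WT, in DKO against Il10_KO and in the F test. The highest of these counts in Ebi3_KO and DKO against WT, DKO against Il10_KO and the F test came with the block and without Ebi3_KO replicate 3, and the cause was not tested.

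The same omissions moved the Ebi3 difference between -5.51 and -4.82 in Ebi3_KO, -0.101 and 0.382 in Il10_KO and -5.29 and -4.58 in DKO against WT, -0.0564 and 0.759 in DKO against Ebi3_KO, and -5.38 and -4.67 in DKO against Il10_KO. Differences from WT that changed sign without passing were Il27ra (-0.0613 to 0.0827 in Ebi3_KO, -0.159 to 0.00261 in Il10_KO, -0.0785 to 0.237 in DKO), Il12rb1 (-0.387 to 0.141, -0.15 to 0.358 and -0.309 to 0.192 in the same order) and Il12rb2 (-0.0916 to 0.592 in Ebi3_KO, -0.151 to 0.432 in Il10_KO). Among dim probe sets these were Il12a (-0.0577 to 0.962 in Ebi3_KO, -0.386 to 0.678 in DKO), Il12b 1449497_at (-0.161 to 0.975 in Ebi3_KO, -0.0362 to 0.866 in Il10_KO), Il6st 1460295_s_at (-0.173 to 0.223 in Ebi3_KO) and Il6st 1421239_at (-0.386 to 0.528 in Il10_KO). In DKO, Stat3 ranged from -0.347 to 0.336 and Stat5a from -0.0457 to 0.236. With log2(signal + 100) the Il12a difference in DKO was 0.00318 and that of Il6st 1460295_s_at in Ebi3_KO was -0.0034. Signals near the tissue gene level limit Il12a, Il12b, Il23a and Il12rb2, for which these arrays hold little above background.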
